A study of Mus musculus with 6 samples.

Results

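Alternative 3′ splice sites other than pairs 3 nt apart were followed in mouse hippocampus. An alternative 3′ splice site event is a pair of acceptor sites that join to the same upstream exon, so that the following exon starts either at the upstream or at the downstream site. Members were the alternative 3′ splice site events of the splicing table whose long and short exon differ in length by anything but 3 nt. This rule used exon coordinates only and gave 2820 events of the 3525 alternative 3′ splice site events and of the 40961 events of all 5 types. The 2820 events lay in 2116 genes and held 2757 distinct pairs of sites.

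The samples were 3 hippocampal RNA samples per group from male C57BL/6 J mice injected with adeno-associated virus (AAV) in both CA1 areas at 8 weeks of age. One group received a control shRNA (control) and the other received 4 shRNAs in tandem against the long isoform of hnRNP D-like, or L-DL (L-DL KD). Each shRNA was driven by an H1 promoter, while the CamkIIα promoter of the vector drove the zsGreen marker, and the control virus had the higher titre. The sample labels write "hnRNP DL-/-" as well as "hnRNP DL KD" for the second group and "WT" for the first, and what was delivered in both was a viral shRNA. Hnrnpdl, the targeted gene, had 171 to 184 CPM (gene counts scaled to library size) in the controls and 150 to 217 CPM in the other group. The change of 0.03 on the log2 scale did not pass (standard error 0.12, adjusted p = 0.898, edgeR with Benjamini-Hochberg adjustment). This gene count does not separate the long isoform, so the samples of the second group are referred to by their label, as KD-labelled libraries.

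In splicing, the 3′ end of an intron is read from a branch point, a polypyrimidine tract and a final AG. The branch point is bound by SF1 and then by the U2 snRNP, the tract by the large U2AF subunit (gene U2af2) and the AG by the small U2AF subunit (gene U2af1). Where 2 usable AGs compete, a short segment is added to the exon or left out. A segment whose length is a multiple of 3 adds or removes codons, while any other length shifts the reading frame of a coding exon. Many neuronal genes carry such short in-frame segments.

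PSI ("percent spliced in", here given from 0 to 1) is the share of transcripts that use the upstream site and so keep the segment between the sites. Each PSI was computed for each library from junction counts divided by effective lengths, and the PSI change is L-DL KD minus control. Junction counts over the members summed to 365576 to 395307 per control library and to 432439 to 461459 per KD-labelled library. An event was tested if its junction counts averaged 20 or more over the libraries and if both forms averaged 1 or more. This was possible for 1619 members in 1291 genes, and the other 1201 had fewer counts. Of those 1201, 598 had a mean under 20 counts and 603 had under 1 count of one of the forms.

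The sequences around the sites of the 7 events with the smallest p-values show what is added at the upstream site. The first set gives the whole segment in capitals with 15 bases of the preceding and 15 of the following exon in lower case, read 5′ to 3′ on the transcript strand from GENCODE M21 transcripts (GRCm38). The Snap91 and Synj1 segments were added after their values were seen, as further in-frame segments in genes of synaptic vesicle endocytosis.
Nptn, chr9:58650497-58650508, plus strand: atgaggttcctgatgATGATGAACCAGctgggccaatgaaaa
Syt1, chr10:108636665-108636673, minus strand: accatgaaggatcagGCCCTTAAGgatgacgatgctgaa
Rpl22l1, chr3:28806670-28806736, plus strand: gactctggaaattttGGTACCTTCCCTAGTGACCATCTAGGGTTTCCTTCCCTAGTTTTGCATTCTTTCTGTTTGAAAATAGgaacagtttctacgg
Snap91, chr9:86781705-86781719, minus strand: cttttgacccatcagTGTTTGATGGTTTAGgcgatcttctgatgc
Synj1, chr16:90974067-90974075, minus strand: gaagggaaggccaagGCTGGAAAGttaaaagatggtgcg

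The second set gives, for segments too long to show whole, the last 30 bases before the AG of the downstream site, that AG in capitals and 15 bases of the exon behind it. These bases hold the stretch where the polypyrimidine tract of the downstream site lies.
Dbn1, segment chr13:55476317-55476773, minus strand: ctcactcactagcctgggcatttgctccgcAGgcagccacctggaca
Bcas2, segment chr3:103175619-103177338, plus strand: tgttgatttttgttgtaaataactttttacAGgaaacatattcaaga
Enah, segment chr1:181921769-181922500, minus strand: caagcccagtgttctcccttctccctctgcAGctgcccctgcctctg
Ehmt2, segment chr17:34905610-34905909, plus strand: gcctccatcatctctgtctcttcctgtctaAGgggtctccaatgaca
In the 20 bases before the AG, pyrimidines made up 60% at the Dbn1 and the Bcas2 site, 90% at the Enah site and 85% at the Ehmt2 site. Over the 1137 tested members with a segment long enough to hold these bases, the median was 70% (quartiles 60% and 80%). The segment ended in AG in 1615 of the 1618 tested members with an annotated long form. Of the 834 such segments of 50 nt or less, 578 (69.3%) held no AG before the final one.

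Adjusted over the 18829 tested events of all types (Benjamini-Hochberg), 2 of the 1619 members (0.124%) passed an adjusted p under 0.05 in edgeR's quasi-likelihood test, against 0.255% of all events. Both PSI values rose, and both events lay in genes of the synapse, Nptn and Syt1. At an unadjusted p under 0.001, 7 members passed (0.432%), 3 with a higher and 4 with a lower PSI, against 0.977% of all events. The other 5 events of this threshold were in Dbn1, Bcas2, Enah, Ehmt2 and Rpl22l1. The share of members at both thresholds was therefore below that of all events, most of which were skipped exons where they passed. Skipped exons made up 37 of the 48 events at the adjusted threshold and 151 of the 184 at the unadjusted one. Retained introns had 4 and 8 of 2294 past these thresholds, and mutually exclusive exons 0 and 9 of 2644. Alternative 5′ splice sites had 5 and 9 of 1201.

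Nptn encodes neuroplastin, an adhesion protein of the immunoglobulin superfamily found at synapses. The 12 nt segment lies in coding sequence at the start of exon 6 of transcript Nptn-201 and adds 4 codons in frame. PSI was 0.140, 0.116 and 0.177 in the controls and 0.388, 0.397 and 0.498 in the KD-labelled libraries. All values of the second group lay above all controls, and its lowest was over 0.2 above the highest control. PSI rose from 0.144 ± 0.0308 to 0.427 ± 0.0614 (SD, n = 3 each), with 440 to 1073 junction counts per library. The log2 change of the inclusion odds was 2.16 (standard error 0.28, adjusted p = 0.0105, edgeR with Benjamini-Hochberg adjustment).

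Syt1 encodes synaptotagmin 1, the calcium sensor of fast transmitter release. Its 9 nt segment at the start of exon 6 of Syt1-201 adds 3 codons. PSI was 0.605, 0.623 and 0.598 in the controls and 0.8001, 0.849 and 0.860 in the KD-labelled libraries. The groups did not overlap, and the controls spanned a narrow range. PSI rose from 0.609 ± 0.0131 to 0.836 ± 0.0320, with a log2 change of the odds of 1.72 (standard error 0.26, adjusted p = 0.0196, edgeR with Benjamini-Hochberg adjustment). From 412 to 883 junction counts per library stood behind these values.

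Neither call held when a control library or the second L-DL KD library of the table was left out. The adjusted p was then 0.0666 to 0.107 for Nptn and 0.109 to 0.155 for Syt1 in edgeR, and the Syt1 call was also lost without the third L-DL KD library (adjusted p = 0.0956). The log2 change of the odds stayed between 1.95 and 2.35 for Nptn and between 1.60 and 1.91 for Syt1 when single libraries were left out.

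Among the 5 events that passed the unadjusted threshold alone, 4 had a lower PSI and segments of 300 to 1720 nt. Enah encodes Mena, an actin regulator of the Ena/VASP family. Its 732 nt segment belongs to coding exon 7 of Enah-201, keeps the frame and holds no stop codon. PSI was 0.684, 0.657 and 0.648 in the controls and 0.472, 0.410 and 0.271 in the KD-labelled libraries. The controls lay close together and the second group was spread more widely, without overlap. The log2 change of the odds was -1.67 (standard error 0.33, adjusted p = 0.0667, edgeR with Benjamini-Hochberg adjustment). No skipped exon event of the table used the same pair of junctions.

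Dbn1 encodes drebrin, an actin-binding protein of dendritic spines. The 457 nt segment was annotated in Dbn1-206, a retained-intron transcript. PSI was 0.647, 0.615 and 0.663 in the controls and 0.415, 0.487 and 0.388 in the KD-labelled libraries, again without overlap (adjusted p = 0.0595, edgeR with Benjamini-Hochberg adjustment). The same pair of junctions was also counted for a skipped exon of 138 nt, which starts at the same upstream acceptor. PSI of that exon was 0.688 ± 0.0284 in the controls and 0.522 ± 0.0606 in the KD-labelled libraries (adjusted p = 0.124, edgeR with Benjamini-Hochberg adjustment). The 457 nt are thus that 138 nt exon together with the intron behind it, listed as a retained intron event, and reads over the upstream junction count for both.

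Ehmt2 encodes G9a, a histone H3 lysine 9 methyltransferase. PSI of its 300 nt segment was 0.902, 0.805 and 0.885 in the controls and 0.628, 0.637 and 0.671 in the KD-labelled libraries (adjusted p = 0.0700, edgeR with Benjamini-Hochberg adjustment). A 102 nt skipped exon with the same junctions had a PSI of 0.925 ± 0.0313 and 0.771 ± 0.0179. Bcas2 encodes a spliceosome protein of the PRP19 complex, and its 1720 nt segment had a PSI of 0.969, 0.985 and 0.992 in the controls and 0.912, 0.823 and 0.860 in the second group (adjusted p = 0.0667, edgeR with Benjamini-Hochberg adjustment). A 51 nt skipped exon with the same junctions had a PSI of 0.989 ± 0.00725 and 0.915 ± 0.0302. In both genes the groups did not overlap, and the exon and the longer segment had lower values in the same group. These pairs of events share reads and are not separate evidence.

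Rpl22l1, a paralog of the ribosomal protein gene Rpl22, had the only one of these 5 events with a higher PSI. Its 67 nt segment shifts the frame and was annotated in Rpl22l1-204, a transcript of the nonsense-mediated decay class. PSI was 0.0608, 0.0653 and 0.0680 in the controls and 0.115, 0.206 and 0.219 in the KD-labelled libraries (adjusted p = 0.0837, edgeR with Benjamini-Hochberg adjustment). The upstream site stayed the minor one in every library. The gene count was low, at 6.08 CPM in the controls and 5.35 CPM in the second group. This event alone had 275 to 468 junction counts per library, so the gene count is not read as the gene's expression level.

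**Figure D1:**
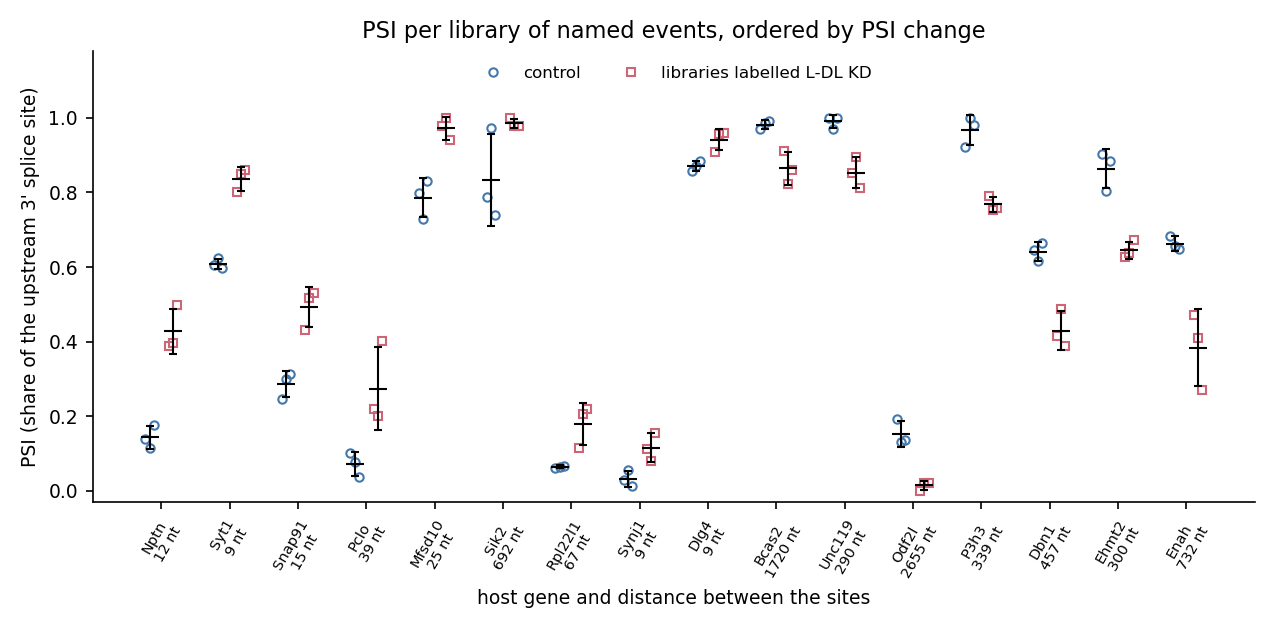
PSI of 16 named events in each library, from the largest positive PSI change at the left to the largest negative one at the right. Circles are control libraries, squares are KD-labelled libraries, and black bars give mean and SD (n = 3). Only Nptn and Syt1 passed an adjusted p under 0.05 in the main edgeR fit, over all event types. The Nptn squares (0.388 to 0.498) all lie above the Nptn circles (0.116 to 0.177).

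With these 7 included, 31 members, each a distinct pair of sites, had an unadjusted p under 0.01 (1.91%, beside 4.25% of all events). In all 31 the libraries of the groups did not overlap, 19 with higher and 12 with lower PSI. Of all events 4.2% met both conditions, 1.32% with higher and 2.87% with lower PSI. This separation and the p-values rest on the same values. The plot of PSI by library shows those with the largest differences. Snap91 encodes AP180, a clathrin assembly protein of synaptic vesicles. Its 15 nt segment in exon 24 of Snap91-202 adds 5 codons. PSI was 0.246, 0.299 and 0.315 in the controls and 0.432, 0.517 and 0.531 in the KD-labelled libraries (adjusted p = 0.119, edgeR with Benjamini-Hochberg adjustment). The groups lay apart by more than the spread within either of them.

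Pclo encodes Piccolo, a scaffold of the presynaptic active zone, and its 39 nt segment in exon 3 of Pclo-204 adds 13 codons. PSI was 0.102, 0.0774 and 0.0376 in the controls and 0.221, 0.201 and 0.402 in the second group, from 35 to 107 junction counts per library (adjusted p = 0.166, edgeR with Benjamini-Hochberg adjustment). One KD-labelled library stood well above the other two. Mfsd10, a membrane transporter of the major facilitator superfamily, had a mean PSI of 0.787 ± 0.0531 in the controls and 0.972 ± 0.0306 in the second group for a 25 nt segment, from at most 57 counts per library. Sik2, a salt-inducible kinase, had a mean PSI of 0.834 ± 0.123 and 0.986 ± 0.0126 for a 692 nt segment, and one control library reached 0.973. The Sik2 segment shares both junctions with a 124 nt skipped exon.

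Of the 12 members with lower PSI at an unadjusted p under 0.01, 11 had segments over 150 nt, and of the 19 with higher PSI 3 did. P3h3, of the prolyl 3-hydroxylase family, had PSI values of 0.922, 1 and 0.981 in the controls and 0.792, 0.754 and 0.759 in the KD-labelled libraries for a 339 nt segment. Unc119, a chaperone of lipid-modified proteins, had PSI values of 1, 0.971 and 1 against 0.853, 0.895 and 0.813 for 290 nt. Odf2l had 0.192, 0.130 and 0.136 against 0, 0.0213 and 0.0222 for 2655 nt, from only 13 to 31 counts per library. Adjusted p-values of these 3 events were 0.129, 0.142 and 0.214 (edgeR with Benjamini-Hochberg adjustment). Each of them shared its pair of junctions with a listed skipped exon, of 151 nt in P3h3, 103 nt in Unc119 and 78 nt in Odf2l. Mean PSI of the exon was 0.970 in the controls and 0.811 in the second group in P3h3, and 0.995 and 0.917 in Unc119. In Odf2l it was 0.0101 and 0, from too few counts to be tested.

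Over all tested members, the median PSI change was 0.00163, beside -0.00172 over all 18829 events tested. The median size of the change was 0.0249, which was below the median SD within a group of 0.0315. A change of at least 0.1 in size was seen in 167 members (10.3%, beside 15.6% of all events), and in 80 of these the groups did not overlap (4.94% of the members, beside 8.26% of all events). At an unadjusted p under 0.05, 136 members passed (8.40%), beside 13.3% of all events. Of these, 78 had a higher PSI (4.82%, beside 4.96% of all events) and 58 a lower PSI (3.58%, beside 8.3% of all events). Of the 1562 events of all types with a lower PSI at this threshold, 1282 were skipped exons. The libraries of the groups did not overlap in 239 members (14.8%, beside 18.4% of all events), 135 of them with higher and 104 with lower PSI in the KD-labelled libraries.

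For comparison, 11 of the 481 tested tandem sites 3 nt apart had an unadjusted p under 0.05 (2.29%) and none an adjusted p under 0.05, in edgeR and in DESeq2 alike, where 12 had an unadjusted p under 0.05. Alternative 5′ splice sites gave 125 of 1201 (10.4%). Retained introns gave 212 of 2294 (9.24%), mutually exclusive exons 117 of 2644 (4.43%) and skipped exons 1895 of 10590 (17.9%). These shares were not tested against each other, and median junction counts per library were 87.8 for the members, 73.8 for the tandem sites and 80.5 for the alternative 5′ splice sites. The medians were 93.75 for retained introns, 109.9 for mutually exclusive exons and 96.3 for skipped exons.

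**Figure D2:**
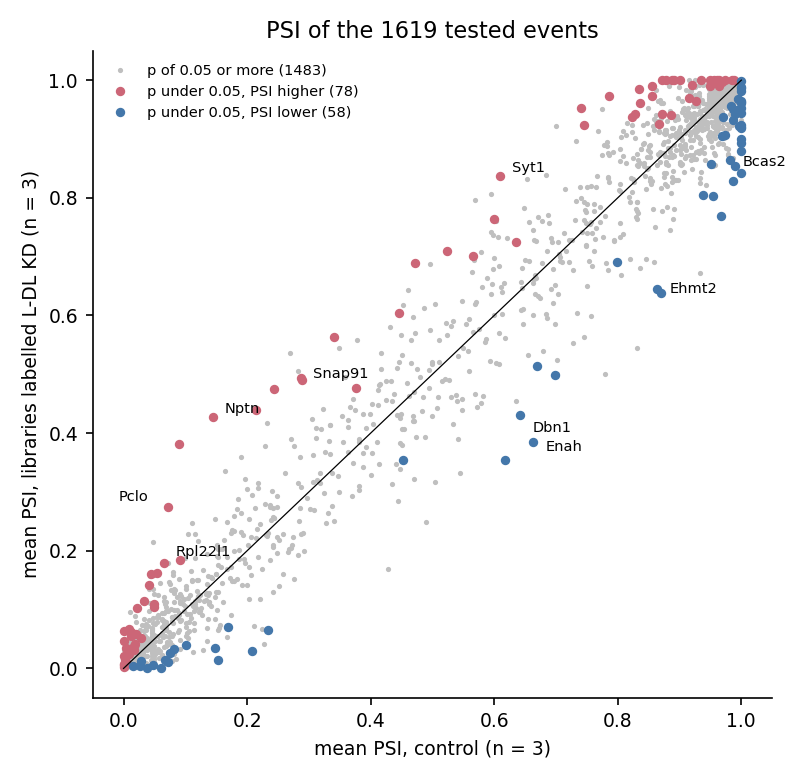
Mean PSI of the KD-labelled libraries against mean PSI of the controls for the 1619 tested events (n = 3 each), with the line of equality. Coloured points have an unadjusted p under 0.05 in edgeR, 78 above and 58 below the line. Most points lie near a PSI of 0 or 1, and Nptn, Syt1, Enah and Dbn1 are among those that lie apart from the line at middle values.

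The members differed by the distance between the sites, which ran from 2 to 5143 nt with a median of 48 nt. In the controls, most events had 1 dominant site. PSI was under 0.1 in 404 members, 0.1 to 0.9 in 659 and 0.9 or more in 556. Distances of 4 nt (118 listed members) and 5 nt (93 listed members) were the most frequent. At these distances the upstream site was used strongly, with a median control PSI of 0.956 at 4 nt and 0.939 at 5 nt. At 15 and 21 nt the downstream site was the major one in most members, with a median control PSI of 0.238 and 0.229.

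Over all tested members, the median control PSI was 0.594 for the 697 segments whose length is a multiple of 3 and 0.782 for the 922 others. By distance, these medians were 0.671 and 0.949 at 1 to 12 nt, 0.415 and 0.448 at 13 to 50 nt, 0.689 and 0.537 at 51 to 150 nt and 0.746 and 0.779 over 150 nt. The order turned when only segments next to an annotated coding short form were read. A total of 981 tested members had an annotated short form in whose coding frame the segment could be read. Where the segment was a multiple of 3 without a stop codon (464 members), the median control PSI was 0.512. It was 0.0873 for the 81 multiples of 3 with a stop codon, 0.0736 for the 223 frame-shifting segments without a stop codon and 0.108 for the 213 frame-shifting segments with one. These 981 were selected because the annotation gives their short form as coding, so the difference between the classes holds for that selection and not for the members as a whole. It is a description of the controls, and sites in 1 gene share reads and annotation.

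**Figure D3:**
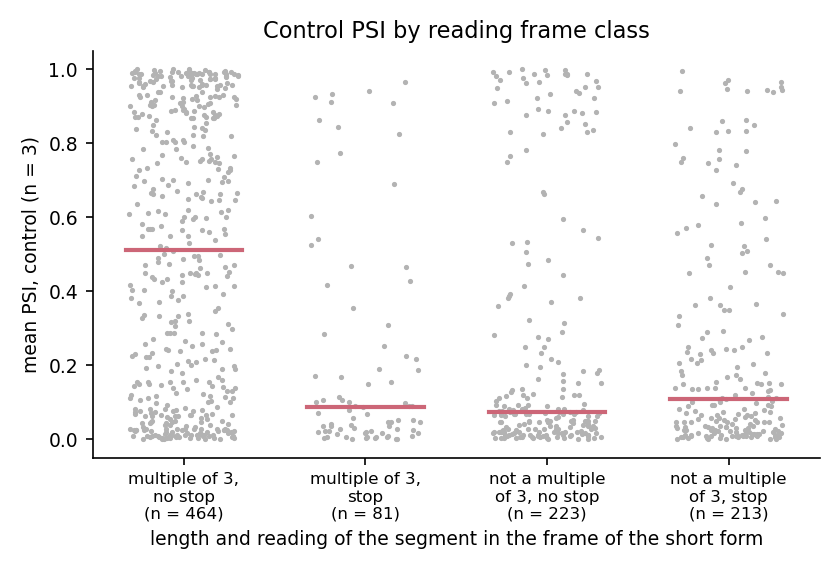
Mean control PSI (n = 3) of the 981 tested events whose segment could be read in the coding frame of an annotated short form, by whether its length is a multiple of 3 and whether it holds a stop codon. Each point is 1 event and each bar the median. The median is 0.512 for in-frame segments without a stop codon and 0.0736 to 0.108 in the other classes, while over all 1619 tested events frame-shifting segments had the higher median (0.782 against 0.594).

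Between the groups, the in-frame class without a stop codon had 23 members with a higher and 10 with a lower PSI at an unadjusted p under 0.05 (7.11%). In-frame segments with a stop codon had 6 and 6 (14.8%), and the frame-shifting classes had 13 and 6 (8.52%) and 13 and 5 (8.45%). Of all events 13.3% passed this threshold, 4.96% with higher and 8.3% with lower PSI. By place in the transcript, 72 of 1033 members in coding sequence passed this threshold (6.97%), 36 of 225 in noncoding transcripts (16.0%) and 17 of 208 partly coding segments (8.17%). In 5′ UTRs 5 of 102 passed (4.90%) and in 3′ UTRs 6 of 50 (12%). The differences between these classes were not tested.

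Of the 99 tested members with segments of up to 12 nt whose length is a multiple of 3, 6 had an unadjusted p under 0.05. This was 6.06%, beside 8.40% of all members and 13.3% of all events. The 6 were looked at singly after their values were seen. Besides Nptn and Syt1, 3 had higher values in the KD-labelled libraries. Dlg4, which encodes the postsynaptic scaffold PSD-95, had PSI values of 0.857, 0.871 and 0.885 in the controls and 0.908, 0.956 and 0.960 in the second group for 9 nt in the 5′ UTR of Dlg4-201. The same 9 nt can be read in the coding frame of the short form Dlg4-210. Synj1, which encodes synaptojanin 1, a phosphoinositide phosphatase of vesicle endocytosis, had 0.0302, 0.0560 and 0.0133 against 0.111, 0.0789 and 0.156. Tex2 had 0.292, 0.349 and 0.379 against 0.619, 0.425 and 0.647 for 6 nt. Hectd2, of the HECT ubiquitin ligase family, had the lower values in the second group, 0.247, 0.139 and 0.123 against 0.0733, 0.0514 and 0.0890 for 9 nt in the 3′ UTR of Hectd2-202. Adjusted p-values of these 4 events ran from 0.164 to 0.367 (edgeR with Benjamini-Hochberg adjustment).

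The share of members at an unadjusted p under 0.05 was higher at long distances. It was 5.81% of 241 members at 1 to 12 nt, 6.41% of 593 at 13 to 50 nt, 7.94% of 529 at 51 to 150 nt and 16.4% of 256 over 150 nt. The share over all events was 13.3%. In the 3 shorter classes more members had a higher than a lower PSI (9 and 5, 23 and 15, 27 and 15), and over 150 nt there were 19 and 23. The longest class was also the one that overlapped with skipped exons. Of its 256 members, 108 (42.2%) had both junctions in common with a listed skipped exon event, against 8 of 529 at 51 to 150 nt and none of the 834 shorter ones. At an unadjusted p under 0.05 were 30 of the 116 members with such a skipped exon (25.9%) and 106 of the 1503 without one (7.05%). Without the 116, the numbers at an unadjusted p under 0.001 were 3 with higher and 1 with lower PSI, in place of 3 and 4. For the 116, the member and the skipped exon share reads, so their PSI changes are not separate evidence. The 2 did not always go together. In Dnm1 the 37 nt exon had a mean PSI of 0.316 in the controls and 0.264 in the second group. The Dnm1 member had 0.521 and 0.587, and neither difference passed the test. How far the changes of the 116 lie in the exon was not tested.

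**Figure D4:**
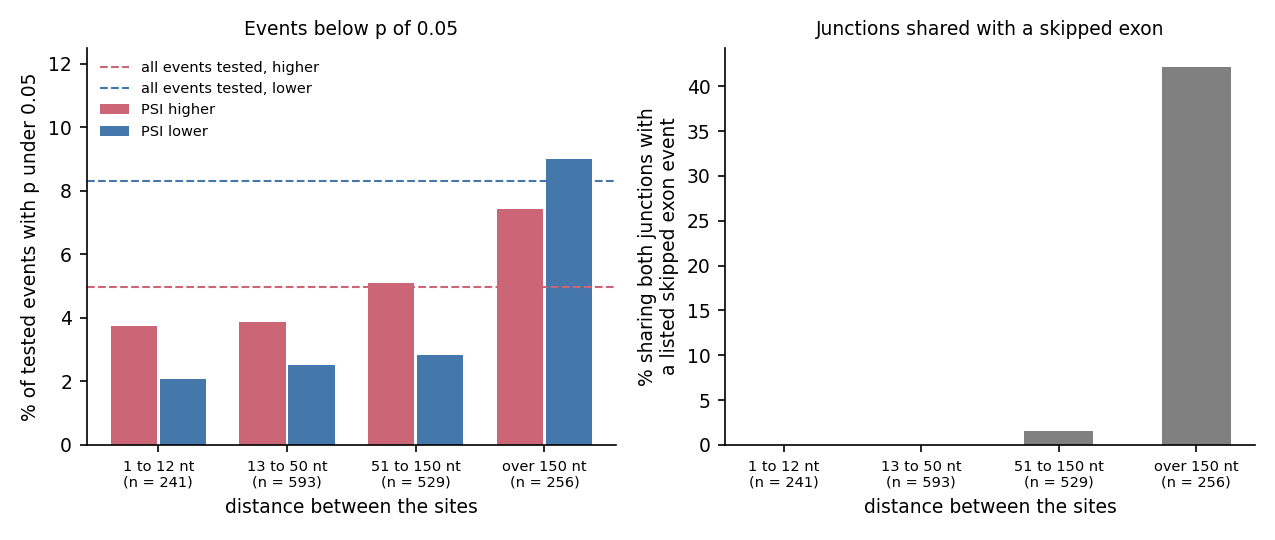
Left, share of tested events with an unadjusted p under 0.05 (edgeR) by distance between the sites, for higher (red) and lower (blue) PSI in the KD-labelled libraries, with dashed lines at the shares over all events tested (4.96% and 8.3%). Right, share of events whose 2 junctions are also those of a listed skipped exon event. Both shares are highest in the class over 150 nt, where 42.2% share junctions with a skipped exon.

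Host genes were read from the gene counts, which the choice of the events did not use. Of the 1281 host genes tested, 450 changed at an adjusted p under 0.05, 220 higher (17.2%, beside 15.6% of all genes) and 230 lower (17.95%, beside 15% of all genes). Nptn fell to a CPM of 227 from 463 in the controls (log2 fold change -1.02, standard error 0.09, adjusted p = 0.000309, edgeR with Benjamini-Hochberg adjustment). Syt1 fell to 524 CPM from 993 (log2 fold change -0.92, standard error 0.10, adjusted p = 0.000564, edgeR with Benjamini-Hochberg adjustment). Enah, Snap91, Pclo, Dlg4 and Synj1 also fell, by 0.33 to 0.86 on the log2 scale in edgeR. P3h3 rose by 0.39 and Unc119 fell by 0.74. Dbn1, Bcas2, Ehmt2 and Rpl22l1 did not pass the test, with log2 fold changes of -0.05, 0.00, -0.17 and -0.18. Of the 77 genes with a higher PSI at an unadjusted p under 0.05, 12 were higher (15.6%) and 22 lower (28.6%) in count. Of the 57 genes with a lower PSI, 13 were higher (22.8%) and 10 lower (17.5%). Beside these stand 17.2% higher and 17.95% lower of all host genes, and 15.6% and 15% of all genes.

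**Figure D5:**
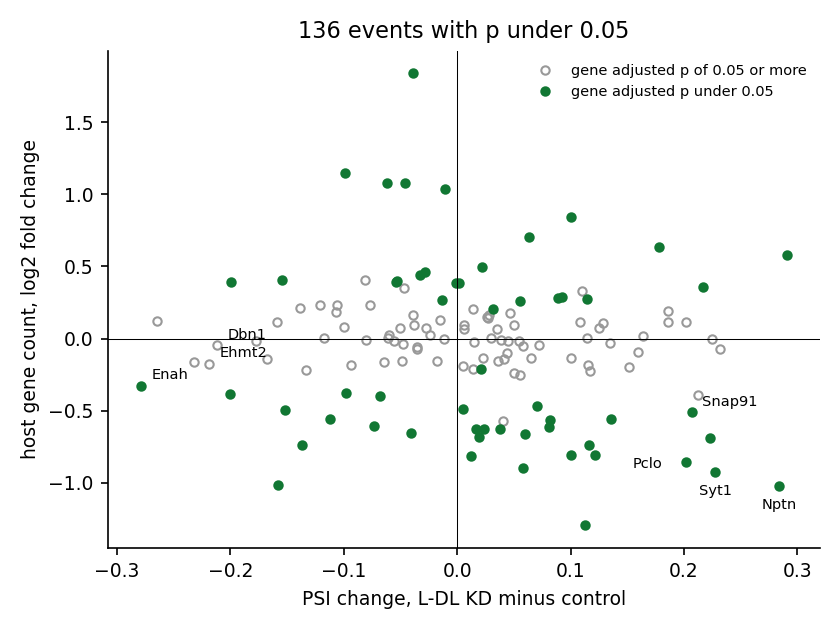
Log2 fold change of the host gene's count against the PSI change (L-DL KD minus control) for the 136 events with an unadjusted p under 0.05. Filled points are genes that passed an adjusted p under 0.05 on gene counts (edgeR). Nptn, Syt1, Pclo and Snap91 lie at the lower right, with higher PSI and lower counts.

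The makeup of the tissue RNA differed between the groups in the same libraries. All 6 neuron markers fell, and their summed level was 3750 to 3955 CPM in the controls and 1981 to 2436 CPM in the KD-labelled libraries. Syt1 is one of these markers. All 6 microglia markers rose, from a sum of 873 to 1092 CPM to 1892 to 2335 CPM. Of 5 CA1 pyramidal cell markers 3 fell, of 5 dentate granule cell markers 3 fell, of 5 endothelial markers 3 rose, of 5 astrocyte markers 1 rose and 2 fell, and of 5 oligodendrocyte markers 1 rose. The 4 choroid plexus markers gave sums of 430 to 4579 CPM in the controls and 28.8 to 5129 CPM in the second group, with no marker past the test. No marker of any list was at 0 in all libraries. In bulk tissue, fewer cells of a type and less RNA per cell cannot be told apart, and the part of these differences in the PSI values was not tested.

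Of 27 listed genes whose products read 3′ splice sites, 6 had a tested member each (Sf3a2, Dhx15, U2af1l4, Prpf18, Sf1 and U2af2), and none passed an adjusted p or an unadjusted p under 0.05 in edgeR or DESeq2. Their median PSI change was 0.00463, beside -0.00172 over all events. The 3 with the most junction counts were Sf1, the branch point binding protein (PSI 0.992 ± 0.00243 and 0.995 ± 0.00870), Dhx15, an RNA helicase of the spliceosome (0.977 ± 0.0168 and 0.953 ± 0.0248), and U2af1l4, a paralog of the small U2AF subunit (0.0104 ± 0.00118 and 0.0167 ± 0.0108). In gene counts, 2 of the 26 tested genes of this list rose (7.69%, beside 15.6% of all genes) and 6 fell (23.1%, beside 15%), with a median log2 fold change of -0.04 beside 0.01 over all genes. U2af2 fell from 155 ± 7.36 to 122 ± 3.12 CPM and Sf1 from 249 ± 2.90 to 192 ± 11.7 CPM (adjusted p = 0.00628 and 0.00485, edgeR with Benjamini-Hochberg adjustment). U2af1 had 33.3 and 35.9 CPM and did not pass (adjusted p = 0.398, edgeR with Benjamini-Hochberg adjustment). Cactin, Dhx8, Rbm17 and Zrsr1 also fell, and Prpf8 and Sf3a2 rose.

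Splicing regulators held 40 tested members in 21 of 77 genes, of which 2 had a higher and 1 a lower PSI at an unadjusted p under 0.05 (7.5%, beside 13.3% of all events) and none passed after adjustment in edgeR or DESeq2. DESeq2 gave 1 at an unadjusted p under 0.05. Their median PSI change was -0.00577. Luc7l3, a U1 snRNP-associated protein, had PSI values of 0.950, 0.979 and 0.977 in the controls and 0.996, 1 and 0.992 in the KD-labelled libraries for 246 nt. Both junctions of this event are also those of a 141 nt skipped exon, with PSI 0.967 ± 0.0157 and 0.996 ± 0.00429. Hnrnpk, a poly(C)-binding hnRNP, had 0.416 ± 0.0189 and 0.509 ± 0.0519 for 60 nt. Srsf5, an SR protein, had 0.00583 ± 0.00111 and 0.00605 ± 0.000948 for 195 nt that hold a stop codon, and so used the downstream site nearly always in both groups. As genes, 11 of these 77 rose (14.3%, beside 15.6% of all genes) and 15 fell (19.5%, beside 15%). The 15 that fell were Rbfox1, Rbfox2, Rbfox3, Elavl2, Elavl3, Elavl4, Celf4, Celf6, Khdrbs3, Srrm1, Srrm3, Ptbp2, Hnrnpa0, Srpk1 and Srpk2. The 11 that rose were Celf3, Nova1, Ptbp1, Ptbp3, Qk, Srsf2, Hnrnpf, Hnrnpk, Hnrnpl, Hnrnpu and Hnrnpul1.

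The nonsense-mediated decay factors had 1 tested member, in Smg5 (31 nt), with PSI 0.138 ± 0.00772 and 0.109 ± 0.0681 and overlapping groups. The synapse and cytoskeleton genes that the study names had 6 tested members in 5 of 16 genes, with a median PSI change of 0.0478 beside -0.00172 over all events. The changes went both ways, from -0.157 for a 101 nt segment of Mapt, from a mean of 23.3 counts per library, to 0.0985. None passed after adjustment in edgeR or DESeq2, and 2 of the 6 (Dlg4 and Synj1) had an unadjusted p under 0.05 in each tool. In edgeR this was 33.3%, beside 13.3% of all events. As genes, 10 of the 16 fell (62.5%, beside 15% of all genes) and 0 rose. That list was taken from a study of these samples and is not independent of them. Epb41l3, protein 4.1B of the membrane skeleton, had 0.685 ± 0.0693 and 0.710 ± 0.109 for 54 nt, with overlapping groups.

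The most deeply counted members with both sites in use show what these libraries can resolve. Klc1, a kinesin light chain, had a PSI of 0.710 ± 0.0281 in the controls and 0.691 ± 0.00901 in the KD-labelled libraries for 24 nt, from 1048 to 1261 counts per library. The difference of -0.0194 (standard error 0.0170) was within the spread. Dnm1, the neuronal dynamin, had 0.521 ± 0.0227 and 0.587 ± 0.0709 for 1423 nt. Gpm6b, a membrane proteolipid of neurons and glia, had 0.597 ± 0.0286 and 0.654 ± 0.0363 for 1561 nt. Snrnp70, which encodes the U1-70K protein of the U1 snRNP, had 0.636 ± 0.0309 and 0.725 ± 0.0411 for 2366 nt, with groups that did not overlap. Adjusted p-values of these 4 events were 0.867, 0.580, 0.558 and 0.334 (edgeR with Benjamini-Hochberg adjustment), and the long segments in Dnm1, Gpm6b and Snrnp70 share their junctions with listed skipped exons.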

How the data were processed

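Polyadenylated RNA of the hippocampus was sequenced from both ends, 150 nt each. Per the labels, the processing notes of the submitters name Bowtie 1.1.2, HISAT2 2.1.0, HTSeq 0.6.1 and build mm10 (GRCm38). The authors deposited raw read counts per gene, which total 16052529 to 17913064 per library, and an rMATS table of junction counts with the effective length of each form. That table also holds the authors' PSI, p-values, FDR and PSI differences, none of which was used. It names neither groups nor replicates. Group 1 was taken as L-DL KD because the methods define the difference as KD minus control. Across 6733 genes, junction totals of group 1 over group 2 had the sign of the gene-count fold change in 2599 of 2627 genes called from the named gene columns (Pearson r = 0.948 across genes, which are not replicates).

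Junction counts were fitted with edgeR 4.0.16 (R 4.3.3) in 12 columns, 2 forms in 6 libraries, with 1 term per library, 1 for inclusion and 1 for the change of inclusion between groups. All 5 event types were fitted together and p-values of the quasi-likelihood test were adjusted together by Benjamini-Hochberg. For gene counts the same kind of test was run after TMM scaling, on genes that reached 10 counts in 3 or more libraries, with calls at an adjusted p under 0.05. The labels number samples and do not say that these come from separate mice, so p-values measure the spread between these samples. Effective lengths of the inclusion form ran from 149 to 298, and inclusion counts hold reads over the upstream junction together with reads across the end of the segment. Counting by strand is not given in the sources used here. Both fits were tested on simulated data. Alternatives used DESeq2 1.42.0, limma 3.58.1 (pseudocount 0.5), other count minima, other event sets, PSI without effective lengths, other scaling, a replicate block and each library left out. Segments were placed on GENCODE M21 transcripts of GRCm38, and intron sequence before the upstream sites was not used here. Summaries used Python 3.11.15 with pandas 2.3.3 and scipy 1.17.1.

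Members and lists were chosen with earlier results of these data known. Events were named, once per pair of sites, if they passed an adjusted p under 0.05 or an unadjusted p under 0.001, if they were among the 6 largest differences in each direction at an unadjusted p under 0.01 without overlap, if they had the most counts (at most 3) within a gene list, or if they were among the 4 with most counts at a control PSI of 0.2 to 0.8. A skipped exon event was matched to a member when it had the same upstream exon end, the same upstream acceptor and the same downstream acceptor.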

Additional observations from a re-analysis of the deposited data

How the results depend on the processing

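The 2 events at an adjusted p under 0.05 became 3 with DESeq2, 0 with limma on the log2 ratio and 7 when the alternative 3′ splice site events were fitted alone, and 0 to 4 when each library was left out in turn. DESeq2 added Bcas2 (adjusted p = 0.0476). The edgeR fit of these events alone added Enah, Dbn1, Bcas2, Ehmt2 and Rpl22l1 (adjusted p from 0.0114 to 0.0199). The 7 events at an unadjusted p under 0.001 became 14 in the fit of these events alone, 4 without events that share both junctions with a skipped exon (chosen after seeing the data) and 2 to 8 with each library left out. With other count minima and 1 event per pair of sites both counts were as reported. The cause of these shifts was not tested. Of 28 named events, the direction turned with a library left out in 3 that passed no test. With each library left out, the log2 change of the odds ran from -1.03 to 0.0378 for Smg5, from -0.14 to 0.61 for Epb41l3 and from -0.0410 to 0.22 for Srsf5. PSI changes without effective lengths moved by more than 1 SD in 5 events (Bcas2 to -0.0638, Ehmt2 to -0.142, P3h3 to -0.114, Unc119 to -0.0746 and Odf2l to -0.236), all with the same direction, and the changes of Luc7l3 (to 0.0142) and Sik2 (to 0.0865) became smaller by over 1.5 times. The 450 changed host genes ranged from 301 to 555 with a library left out, and the 8 changed genes of 3′ splice site recognition from 4 to 10. Replicate numbers are in the labels of the gene counts alone. Same-numbered libraries deviated together with correlations of 0.05, 0.13 and -0.11, so the numbers were not taken as pairs. With the replicate block 390 host genes and 6 recognition genes passed. No paired analysis was possible because the splicing table gives no replicate numbers, so the planned block on junction counts was not run. Depth left 598 of 2820 members untested with a mean under 20 counts, and 603 more had enough counts but under 1 of one form.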
